A study of Mus musculus with 36 samples.

Results

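DNA methylation in the Ikaros cells was compared between 24 h after induction and 0 h. The members were 6 of the 36 libraries in the series, 3 of Ikaros cells at 0 h and 3 of Ikaros cells at 24 h. The cells were B3, a mouse pre-B lymphocyte line transduced with a retrovirus that encodes haemagglutinin-tagged wild type Ikaros fused to the ERt2 hormone-binding domain, followed by GFP. The fusion protein moves into the nucleus when 4-hydroxy-tamoxifen (4-OHT) is added, here at 0.5 µM. The 24 h cells were collected 24 h after 4-OHT. The study's methods state that the 0 h cells had no 4-OHT and were collected separately, whereas the sample labels list 4-OHT for the 0 h libraries as well. In both groups replicates 1 and 3 came from batches 1 and 4, and replicate 2 came from batch 2 at 0 h and from batch 3 at 24 h. The contrast therefore differs in induction, in drug and in collection, and these cannot be told apart within the Ikaros cells. The Control cells of the same line carried an empty vector in place of Ikaros and had the same time points. By the study's methods they received 4-OHT at 0.5 µM as the Ikaros cells did. All groups are 1 cell line, so the replicates are separate cultures of it and not separate animals.

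Cytosine methylation in mammals sits mostly at CpG dinucleotides. It is written by the Dnmt enzymes, copied to the new strand at replication, and lost either by dilution through cell division or by oxidation started by the Tet enzymes. CpG-rich promoters of active genes are usually unmethylated, while gene bodies and intergenic CpGs are usually methylated. Ikaros is a zinc finger protein of lymphoid cells that recruits the NuRD complex, and in pre-B cells it opposes proliferation and promotes differentiation.

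Methylation was measured by reduced representation bisulfite sequencing, which enriches CpG-rich fragments. A level is the smoothed percentage of methylated reads at a position. A cluster is a run of listed positions at most 100 bp apart, and its level is the mean over positions with a value in all 6 libraries. Of 1116417 positions, 1056051 (94.6%) had such values, and 17811 of 18009 clusters held at least 1. By the mean level at 0 h, 8372 clusters lay under 10%, 2060 at 10 to 90% and 7379 over 90%. There were 86 clusters at 8 to 10% and 51 at 10 to 12%, and 289 at 88 to 90% and 542 at 90 to 92%. By position, 13204 clusters lay within 1000 bp of a transcription start (promoter), 1832 in coding exons, 77 in UTRs, 650 in noncoding exons, 745 in introns and 1303 between genes.

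The line could be checked against lineage genes only in part, since few of their promoters held a cluster. The promoters of Pax5 and Ebf1, which encode B-lineage transcription factors, were at most 1.40% and 1.74% methylated in any of the 6 libraries. The promoter of Bcl11b, a T-lineage factor, was at 95.3 to 99.2%, and that of Epor, the erythropoietin receptor, at 87.9 to 99.6%. The promoter of Tcf7, also a T-lineage factor, was at 47.2 to 65.0%, and that of Cebpe, a myeloid factor, at 81.5 to 89.1%. The promoter of Klf1, an erythroid factor, lay at 0.188 to 1.68%. No cluster lay at the promoters of the other 12 of 14 listed B-lineage markers.

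The libraries differed in quality measures. Between 0.194% and 0.717% of positions were empty at 0 h, against 0.831% to 3.18% at 24 h. Levels of exactly 100% made up 3.22 to 6.64% of values at 0 h and 7.43 to 14.2% at 24 h, so the groups did not overlap in this share. Ikaros 24 h replicate 2 was highest in both measures among the 6. In the Control cells empty positions went the other way, from 0.362 to 11.6% at 0 h to 0.110 to 0.298% at 24 h. In the other 15 Ikaros libraries the share of exact 100% was 2.33 to 9.36%. The part of these shares in the differences below was not tested for single clusters, and a fit that included such shares as covariates is given with the counts. The library labelled Control 24 h replicate 2 also stood apart. At 111 clusters where the other 11 libraries of 0 h and 24 h separated by series, its level lay 71.3% of the way from the Control to the Ikaros mean (median), while the other Control libraries lay between -3.52% and 9.88% of that way. Those 11 libraries set the choice of clusters, which places them near their own series mean. The comparison with them is therefore a description.

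No single cluster passed the adjusted test for a change over 24 h. With limma on the M-values (log2 of the level over 1 minus the level, limited to 1 to 99%), 0 of 17811 clusters reached an adjusted p of 0.05 (0%), and the smallest adjusted p was 0.285. At an unadjusted p under 0.05, 809 clusters were higher (4.54%) and 277 lower (1.56%). After centring the libraries on the clusters of 10 to 90%, the same counts were 438 and 434. The 3 libraries of 24 h all lay above the 3 of 0 h in 1212 clusters (6.8%) and all below in 550 (3.09%). In the fit to all 18 Ikaros libraries with the share of empty and of exact 0% or 100% values as covariates, 775 clusters were higher and 481 lower at an unadjusted p under 0.05, and 0 passed adjustment. Level differences above 5 percentage points occurred in both directions, 474 up and 440 down.

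Few clusters crossed a class boundary. Of the 8372 clusters that started under 10%, 8325 had a 24 h mean still under 10% and 47 were at 10 to 90%. Of the 2060 that started at 10 to 90%, 1796 stayed, 236 went over 90% and 28 under 10%. Of the 7379 that started over 90%, 7116 stayed and 263 were at 10 to 90%.

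The unmethylated class, mostly promoters (93.3%), had a mean level of 0.788%, 0.794% and 0.870% in the 3 libraries of 0 h and of 1.03%, 0.861% and 0.921% at 24 h. The groups overlapped, because replicate 2 at 24 h lay below replicate 3 at 0 h. The difference was 0.118 percentage points, with an exact two-sided permutation p of 0.2 (adjusted 0.5 over the 3 classes). With 3 libraries against 3 the smallest p is 0.1. Over single clusters the median difference was 0.0595, and 55.8% of clusters had a higher mean at 24 h. Within batch 1 the difference was 0.237 and within batch 4 it was 0.0505. Without Ikaros 24 h replicate 1 it was 0.0732.

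The partly methylated class stood at 60.5%, 61.5% and 62.4% at 0 h and at 61.5%, 62.8% and 62.3% at 24 h. Here the groups overlapped, and the difference of 0.766 points had an exact permutation p of 0.4 (adjusted 0.5). It was 1.08 within batch 1 and -0.0745 within batch 4. Its size moved with the processing, from 0.234 with the class set by all 6 libraries, through 0.410 and 0.428 with the class set by the Control 0 h and by the Ikaros 2 h to 18 h libraries, to 1.10 over single positions and 1.64 between the libraries' medians over clusters. The median of the differences of single clusters was 0.807. The class mean difference of 0.766 was 0.276 without Ikaros 0 h replicate 1, 1.22 without Ikaros 0 h replicate 3 and 0.470 without Ikaros 24 h replicate 2. The spread between replicates of a single cluster was widest in this class, with a median SD of 3.72 points at 0 h and 4.62 at 24 h.

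The methylated class stood at 95.9%, 95.9% and 96.2% at 0 h and at 96.2%, 95.9% and 96.1% at 24 h. The difference of 0.0780 points had an exact permutation p of 0.5 (adjusted 0.5), and its direction turned with the batch (0.373 in batch 1 and -0.156 in batch 4). With the class set by other libraries it was 0.197 (Ikaros 2 h to 18 h), 0.201 (Control 0 h) and 0.263 (all 6), and between the libraries' medians it was 0.373. Leaving out 1 library at a time gave values from -0.0101 (without Ikaros 24 h replicate 1) to 0.194 (without Ikaros 0 h replicate 3). In all 3 classes the groups overlapped. The difference under 10% was larger than the SD of either group (0.0456 at 0 h and 0.0832 at 24 h), that at 10 to 90% lay between its SDs (0.950 at 0 h and 0.634 at 24 h), and that over 90% was smaller than both of its SDs (0.201 and 0.175).

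**Figure D1:**
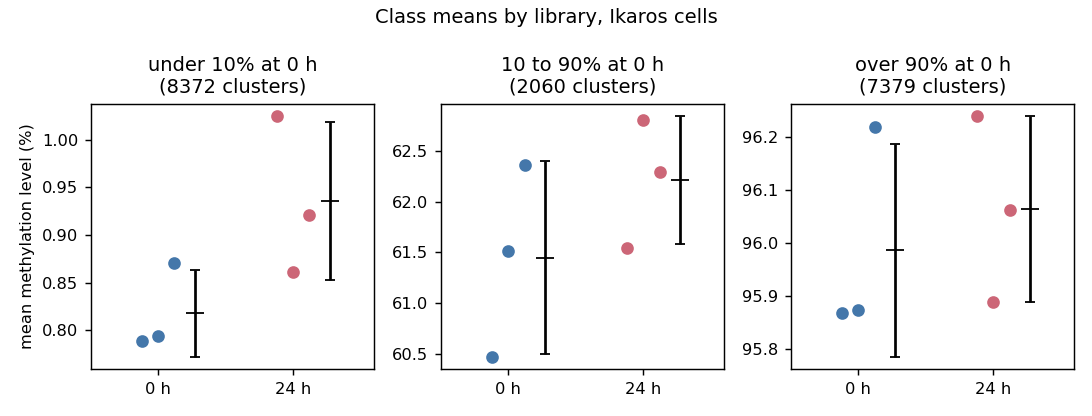
Mean methylation level (%, y axis, a separate scale in each panel that does not start at 0) of the clusters in each starting class, 1 point per library at 0 h and 24 h (x axis); the bar beside the points is the mean ± SD (n = 3). The 24 h points overlap the 0 h points in every class.

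Finer bins of the starting level depended on which libraries set the bin. Binned on the 0 h libraries, clusters that started at 20 to 30% were 2.25 points higher at 24 h, those at 50 to 60% were 1.87 points lower (a difference of -1.87), and those at 99 to 100% differed by -1.77. Binned on the 12 Ikaros libraries of 2 h to 18 h, which enter neither group, the same bins differed by 0.668, 0.685 and -0.558 points. Of the 17 bins, 7 turned direction with this choice, those at 1 to 10%, at 50 to 70% and at 97 to 99%, and the highest bin held 24 clusters in the second binning against 169 in the first. The 0 h libraries take part both in the bin and in the difference, so bins set by them are not an independent measure.

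**Figure D2:**
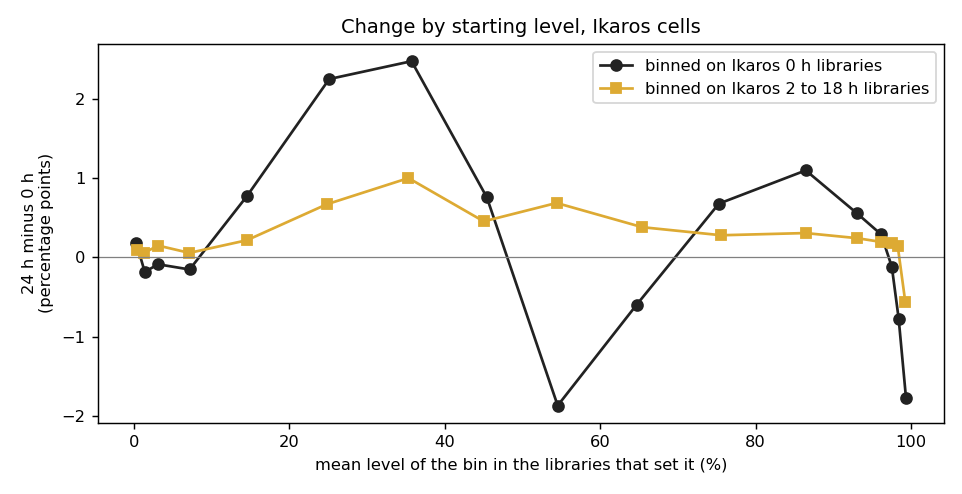
Difference in mean level between 24 h and 0 h (percentage points, y axis) against the mean level of the bin (%, x axis), for bins set by the 0 h libraries (circles) and by the 2 h to 18 h libraries (squares). The circles run from -1.87 to 2.47 and the squares from -0.558 to 0.999.

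By gene context, all 6 groups had a slightly higher mean at 24 h. Promoter clusters went from 35.8%, 35.9% and 36.1% to 36.1%, 36.1% and 36.1%, a difference of 0.163 points (exact permutation p = 0.4). The 77 UTR clusters showed the largest difference, 0.928 points, from 72.9%, 73.3% and 73.1% to 74.5%, 73.9% and 73.7%. All 3 libraries of 24 h lay above all 3 of 0 h, so the exact permutation p was 0.1, the smallest possible, and it was 0.554 after adjustment over the 24 context comparisons. With a promoter window of 500 bp the UTR difference was 0.561. Coding exons, noncoding exons, introns and intergenic clusters differed by 0.223, 0.110, 0.200 and 0.222 points, with overlapping groups. With a promoter window of 2000 bp the intron difference was 0.0924. Without Ikaros 0 h replicate 1 the promoter, coding exon, intron and intergenic differences were 0.0858, 0.127, 0.0827 and 0.0944, and without Ikaros 0 h replicate 3 they were 0.261, 0.344, 0.414 and 0.387. The coding exon difference was also 0.339 without Ikaros 24 h replicate 2, and the intron difference 0.102 without Ikaros 0 h replicate 2. The noncoding exon difference ran from -0.0677 without Ikaros 0 h replicate 1 to 0.314 without Ikaros 0 h replicate 3, and was -0.00312 without Ikaros 24 h replicate 1 and 0.211 without Ikaros 24 h replicate 3.

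Within the starting classes, 3 of the 18 context groups did not overlap. Partly methylated introns (155 clusters) went from 72.5%, 72.8% and 73.8% to 73.9%, 75.4% and 74.3%, a difference of 1.5 points. Partly methylated coding exons (237 clusters) went from 72.1%, 73.0% and 73.0% to 73.4%, 73.7% and 74.0%, a difference of 0.979 points. The 50 UTR clusters that started over 90% went from 95.6%, 95.6% and 95.2% to 96.7%, 96.7% and 96.2%, a difference of 1.07 points. Each had an exact permutation p of 0.1 and an adjusted p of 0.554. Promoters differed by 0.113 points under 10%, 0.598 at 10 to 90% and 0.131 over 90%, and the groups overlapped in every class. Under 10% the promoter value was 0.0687 without Ikaros 24 h replicate 1. At 10 to 90% it was 0.0252 without Ikaros 0 h replicate 1, 1.16 without Ikaros 0 h replicate 3, 1.04 without Ikaros 24 h replicate 1 and 0.143 without Ikaros 24 h replicate 2. Over 90% it ran from 0.0426 without Ikaros 24 h replicate 1 to 0.232 without Ikaros 0 h replicate 3, and every library but Ikaros 24 h replicate 3 moved it by over 1.5 times.

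**Figure D3:**
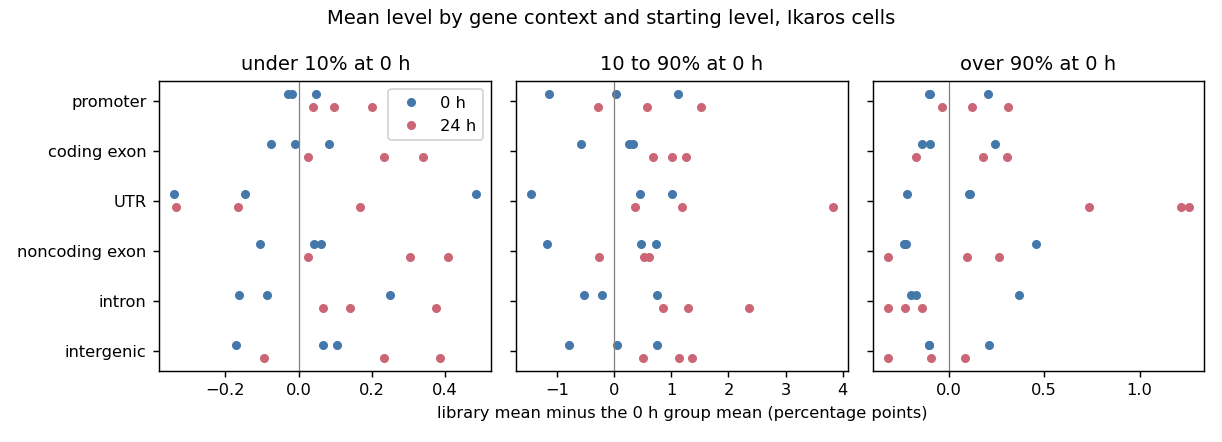
Mean level of each library minus the 0 h group mean (percentage points, x axis, a separate scale per panel) by gene context (y axis) for the 3 starting classes; each point is 1 library, with 0 h in blue and 24 h in red. Only the UTR row over 90% and the coding exon and intron rows at 10 to 90% show every 24 h point to the right of every 0 h point.

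The sequences of 5 of the clusters with the largest shifts are given here, since these are the CpGs whose levels are described next. They are the clusters among the 8 largest rises and 8 largest falls that lie outside UTRs and span no more than 300 bases. They were read from the forward strand of GRCm38, with each CG in capitals.
Fgf9 promoter (chr14:58071159-58071324): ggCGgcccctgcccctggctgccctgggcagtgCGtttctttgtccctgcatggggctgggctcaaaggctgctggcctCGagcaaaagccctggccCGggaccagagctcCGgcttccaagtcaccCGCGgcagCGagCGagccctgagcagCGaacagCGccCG
Myef2 promoter (chr2:125123087-125123281): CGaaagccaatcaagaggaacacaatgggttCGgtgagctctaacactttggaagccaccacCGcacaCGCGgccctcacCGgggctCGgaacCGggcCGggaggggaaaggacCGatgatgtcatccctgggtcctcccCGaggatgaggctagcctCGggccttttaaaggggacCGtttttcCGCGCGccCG
Ogfrl1 promoter (chr1:23383221-23383443): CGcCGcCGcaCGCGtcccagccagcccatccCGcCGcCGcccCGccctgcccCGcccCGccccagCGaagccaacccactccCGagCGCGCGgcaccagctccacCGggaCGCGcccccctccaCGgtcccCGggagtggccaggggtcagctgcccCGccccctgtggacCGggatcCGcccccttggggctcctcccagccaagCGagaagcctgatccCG
intergenic, nearest start Rapgef2 (chr3:78966930-78967079): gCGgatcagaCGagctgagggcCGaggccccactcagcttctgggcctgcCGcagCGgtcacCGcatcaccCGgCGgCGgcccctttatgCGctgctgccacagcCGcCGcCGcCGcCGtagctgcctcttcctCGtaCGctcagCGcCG
intergenic, nearest start Cbx8 (chr11:119056597-119056873): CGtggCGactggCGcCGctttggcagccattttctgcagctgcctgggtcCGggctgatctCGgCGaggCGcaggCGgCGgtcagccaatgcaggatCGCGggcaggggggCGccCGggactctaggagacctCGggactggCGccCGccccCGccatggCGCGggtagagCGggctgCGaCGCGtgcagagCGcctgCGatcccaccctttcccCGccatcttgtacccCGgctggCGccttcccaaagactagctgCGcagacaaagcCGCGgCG
These windows hold 12, 17, 26, 19 and 33 CpGs. The letters TGGGAA or their reverse complement TTCCCA, the core of the sequence bound by Ikaros, occurred in 22.8% of all clusters, in 23.1% of the 646 that rose without overlap at an unadjusted p under 0.05 and in 19.4% of the 227 that fell by the same rule. Among the clusters printed, the one near Cbx8 held such a match. A match is only a match of letters.

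The named clusters were those with the largest level differences among clusters that did not overlap and had an unadjusted p under 0.05, so their 24 h against 0 h values are a description. None of them passed adjustment (limma, adjusted p from 0.423 to 0.819 over the 16 largest). The largest fall was at the promoter of Fgf9, which encodes a secreted fibroblast growth factor. Its cluster, 612 bp from the start site, stood at 55.5%, 48.2% and 50.5% at 0 h and at 10.8%, 3.39% and 22.9% at 24 h. Along its 21 positions, all 24 h libraries lay below all 0 h libraries at 17, toward one side of the cluster. The 12 libraries of 2 h to 18 h ran from 13% to 51.2% with a median of 27.4%, and 11 lay below the lowest 0 h library. The choice favours high 0 h levels at a fall, so other libraries tend to lie lower and this count is a description. In Control cells the cluster was at 36%, 8.90% and 9.36% at 0 h and at 28.7%, 27.4% and 34.1% at 24 h, a difference of 12.0 points in the other direction with overlapping groups.

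The other falls were smaller. Sptbn1, which encodes beta-II spectrin of the membrane skeleton, stood at 47.0%, 46.1% and 44.9% at 0 h and at 31.3%, 15.8% and 16.8% at 24 h over a cluster that spans its start (chr11:30198159-30198409). Pld2, encoding phospholipase D2, went from 66.0%, 56.1% and 53.2% to 35.6%, 38.3% and 45.4%. Ppp1r2, encoding an inhibitor of protein phosphatase 1, went from 10.6%, 6.87% and 28.6% to 0% in all 3 libraries. The 0 h values of Ppp1r2 were themselves far apart, and in Control cells it was between 1.62% and 10.0% at both times. Without Ikaros 0 h replicate 3 the Ppp1r2 difference was -8.71 points. The cluster near 2610008E11Rik, those of Ppp1r3b (a glycogen-targeting subunit of protein phosphatase 1) and Arhgdig and the intergenic one nearest Cbx8 (a Polycomb subunit) fell by 13.9 to 15.2 points.

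The largest rise was at the start of Trim68, which encodes a ubiquitin ligase (chr7:102687055-102687434). Its level was 24.7%, 16.5% and 26.4% at 0 h and 45.7%, 65.0% and 41.4% at 24 h. In batches 1 and 4 alone the difference was 18.0 points, against 28.2 in all. In Control cells the same cluster went the other way, from 34.2%, 32.9% and 37.7% to 31.0%, 22.7% and 32.7%. Of the 12 libraries of 2 h to 18 h, 7 lay above the highest 0 h library. The limma test of the difference between the 2 series gave an unadjusted p of 0.00395 and an adjusted p of 0.501. Trim68 was chosen on its Ikaros values at 0 h and 24 h, so this count and the unadjusted p are a description.

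Myef2, encoding a nucleic acid-binding protein named for its action on the myelin basic protein gene, went from 26.2%, 25.7% and 35.1% to 64.9%, 48.0% and 50.3% over a cluster 133 bp from its start. Rasal2, which encodes a Ras GTPase-activating protein, went from 33.3%, 36.5% and 31.8% to 72.5%, 49.1% and 52.3%. Fech, encoding ferrochelatase of haem synthesis, had the lowest unadjusted p among the 16 (0.000785, limma) and went from 41.1%, 37.3% and 32.8% to 57.5%, 58.4% and 61.7%. Fech was also the tightest of the rises at 24 h. The clusters of Ogfrl1, Sync (an intermediate filament protein), Gm21769 and the intergenic one nearest Rapgef2 (a Rap guanine-nucleotide exchange factor) rose by 20.8 to 25.1 points. The Gm21769 rise rested most on replicate 2 at 24 h, at 49.5% against 17.7% and 21.8%, and the difference without it was 11.5 points.

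Of the 8 largest rises 6 lay at promoters, and of the 8 largest falls 7, where promoters were 74.1% of all clusters. The median of the 12 libraries of 2 h to 18 h lay between the 0 h and 24 h means in 8 of 8 rises and 7 of 8 falls. The choice of clusters places libraries it did not use between the groups, so these counts are a description. The Control difference had the same direction in 1 of 8 rises and in 2 of the 7 falls measured there, again as a description.

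**Figure D4:**
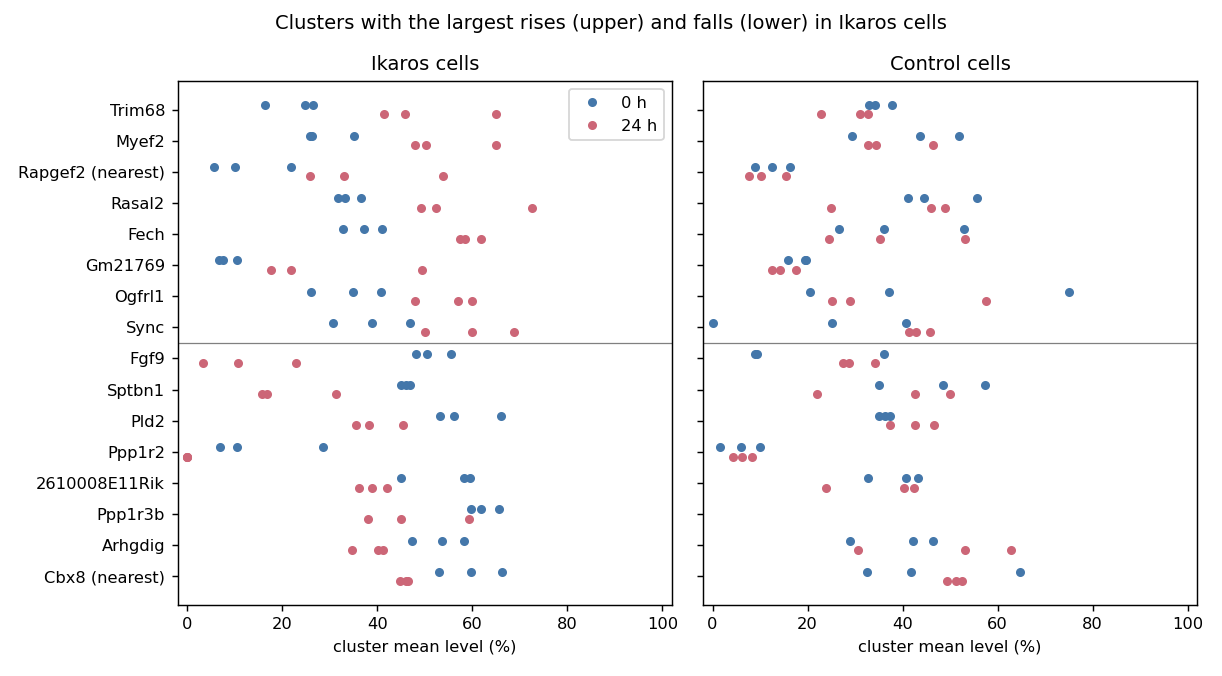
Cluster mean level (%, x axis) of the 8 clusters with the largest rises (upper) and the 8 with the largest falls (lower) in Ikaros and in Control cells, 1 point per library, with 0 h in blue and 24 h in red; Ppp1r3b has no Control value. The groups are apart in Ikaros cells by the choice of clusters, and in Control cells most of them overlap.

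**Figure D5:**
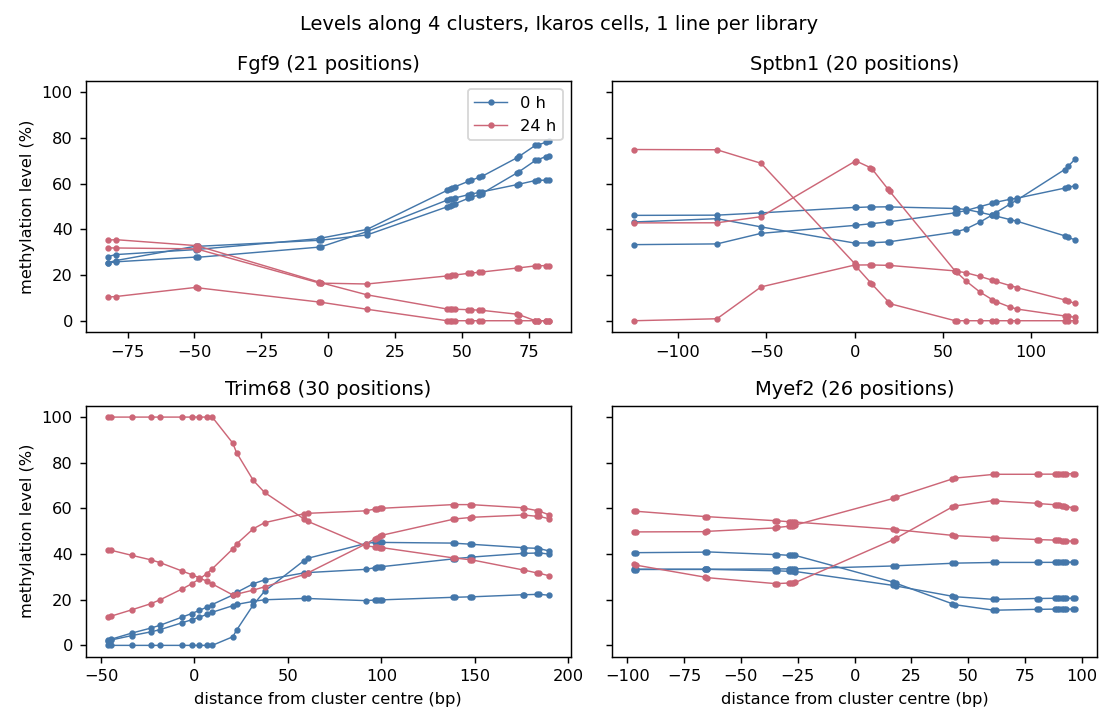
Level (%, y axis) at each position against the distance from the cluster centre (bp, x axis) for Fgf9, Sptbn1, Trim68 and Myef2, 1 line per library, with 0 h in blue and 24 h in red. The lines of the groups are apart along only part of each cluster, at 17 of 21, 11 of 20, 11 of 30 and 16 of 26 positions.

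In the class under 10%, the same rule named rises at Gm21769 and Vps33a, a subunit of the endosomal fusion machinery (4.29%, 6.43% and 0.223% to 27.7%, 18.7% and 14.7%), and falls at Las1l (2.43%, 7.34% and 19.4% to 0.357%, 0% and 0%) and Mrfap1. Mrfap1 went from 7.78%, 15.3% and 5.28% to 0.208%, 0.579% and 1.06%. In the class over 90% it named an intron of Foxp4, a forkhead transcription factor (94.5%, 81.3% and 96.9% to 98.8%, 100% and 100%), and an intergenic cluster nearest Tmem33 (88.6%, 96.5% and 90.5% to 100%, 100% and 99.3%). The latter had the lowest unadjusted p of the named clusters (9.2e-05, limma), with an adjusted p of 0.326. Its 24 h levels lay at the top of the scale, where M-values are limited to 99% and can vary little. It rested on 20 of the 27 positions of its cluster. The falls over 90% were at the Pcdh19 promoter on chromosome X, from 100%, 96.7% and 100% to 86.6%, 90.1% and 96.0%, and at an intergenic cluster nearest Utp18, from 89.3%, 90.6% and 91.8% to 85.7%, 78.9% and 84.1%. The Pcdh19 level rested on only 10 of the 34 positions of its cluster. The Las1l difference was -4.77 points without Ikaros 0 h replicate 3, and that of Foxp4 was 3.87 without Ikaros 0 h replicate 2. In the 2 h to 18 h libraries Pcdh19 lay at 94.9 to 100%, and in Control cells at 93.4 to 100% at 0 h and at 100% in all 3 libraries of 24 h.

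Genes tied to Ikaros, to pre-B cells or to DNA methylation were read from 10 lists (124 genes). A cluster lay within 1000 bp of the start of 96 of them, 154 clusters in all, and 127 of these started under 10%. None passed adjustment. At an unadjusted p under 0.05, 4 were higher and 5 lower, or 2.6% and 3.25%, against 4.54% and 1.56% of all clusters. The median difference was 0.0537 points, against 0.109 for all clusters.

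Among genes that the study follows as Ikaros-responsive, every promoter cluster was under 10% at both times and none had an unadjusted p under 0.05. Myc, a growth transcription factor, lay at 0.755%, 0.139% and 0.153% at 0 h and at 0.511%, 0% and 0.478% at 24 h. Ldha, encoding lactate dehydrogenase A, lay at 0%, 0.129% and 0.187% and then at 0.223%, 0% and 0%. Hk2, encoding hexokinase 2, lay at 1.37%, 1.12% and 0.529% and then at 1.44%, 2.18% and 1.44%. Of these 8 clusters the one of Hk2 did not overlap between groups (limma, adjusted p = 0.873), where 6.8% of all clusters were higher and 3.09% lower without overlap. The clusters of Slc7a5, an amino acid transporter, Lig4, a DNA ligase of end joining, and Foxo1, a forkhead factor, overlapped.

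Other listed genes with larger values were spread over the lists, and where a gene had several clusters the 1 named by the rule is given. In the Myc network, Mxi1, a Myc antagonist, had the smallest p of any listed gene (limma, adjusted p = 0.42). It went from 2.75%, 2.15% and 2.08% to 0% in all 3 libraries. Mycl and Mycn, relatives of Myc, went from 59.5%, 64.7% and 61.3% to 42.0%, 59.3% and 53.5%, and from 2.45%, 1.91% and 2.22% to 0.439%, 1.22% and 0.997%. Tet2, which oxidizes methylcytosine, went from 54.0%, 67.0% and 65.8% to 37.1%, 39.4% and 55.5%, so its groups overlapped in level. In the cell cycle list, Ccnd1, encoding cyclin D1, went from 45.3%, 35.7% and 48.1% to 51.7%, 52.2% and 69.7%, and Cdkn1c, encoding the inhibitor p57, from 95%, 95.8% and 97% to 97.8%, 99.1% and 98.5%.

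Pik3cd, encoding a PI3-kinase subunit of pre-B receptor signalling, went from 96.0%, 95.9% and 98.5% to 99.1%, 100% and 100%. Ikzf3, encoding the Ikaros relative Aiolos, lay at 23.5%, 27.4% and 31.6% and then at 27.1%, 43.4% and 33.8%, with overlapping groups. Aldoa, a glycolytic aldolase, overlapped too, at 24.4%, 33.3% and 39.7% and then 27.7%, 64.1% and 43.9%. None of these passed adjustment, with limma adjusted p from 0.42 to 0.873. Cdk6, a kinase partner of the D cyclins, went from 2.39%, 3.19% and 3.29% to 1.13%, 0% and 2.16%. Mbd1, which binds methylated CpGs, lay at 0%, 0% and 0.399% and then at 1.04%, 1.48% and 0.881%, a difference of 1.00 point. Pax5 lay at 0.491%, 0.891% and 1.11% and then at 1.06%, 1.24% and 1.40%, with overlapping groups, and its difference of 0.404 was 0.234 without Ikaros 0 h replicate 1. Tcf7, a T-lineage factor, lay at 47.2%, 50.1% and 48.8% and then at 65.0%, 54.1% and 51.4%. Its groups did not overlap (limma, adjusted p = 0.873), and its difference of 8.13 points was 4.05 without Ikaros 24 h replicate 1. Leaving out 1 library also moved the differences of Mycl (-5.44 without Ikaros 24 h replicate 1), Ccnd1 (8.89 without Ikaros 24 h replicate 3), Ikzf3 (11.1 without Ikaros 24 h replicate 1 and 3.00 without Ikaros 24 h replicate 2) and Aldoa (21.5 and 3.32, respectively) by over 1.5 times.

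By list, the counts at an unadjusted p under 0.05 are read against 4.54% higher and 1.56% lower over all clusters. The NuRD list had 25 clusters, the immunoglobulin recombination list 6, the Ikaros family 6 and the glycolysis and nutrient uptake list 21, with 0 in either direction. The pre-B receptor list had 1 higher of 15 clusters and the B-lineage factors 1 higher of 19. The cell cycle list had 1 higher and 1 lower of 24, the Myc network 3 lower of 23 (13%), and the DNA methylation list 1 higher and 1 lower of 17. Igll1, a surrogate light chain gene, had no cluster at its promoter.

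Clusters were also classed by their mean over all 18 Ikaros libraries (8368, 1990 and 7411 clusters). In these classes, and set against the other 15 Ikaros libraries, the 3 libraries of 24 h had means of 0.918% against 0.873% in the lowest class, 61.3% against 60.9% in the middle class and 96.1% against 96.0% in the highest. The exact permutation p over 816 relabellings was 0.537, 0.281 and 0.368 (0.537 each after adjustment). The differences of 0.0447, 0.383 and 0.110 points were -0.000202, 0.752 and 0.0214 without Ikaros 24 h replicate 1, and 0.0803, 0.118 and 0.184 without Ikaros 24 h replicate 2. In the highest class the means by time ran 95.9%, 95.9%, 96.0%, 96.1%, 96.1% and 96.1% from 0 h to 24 h, with SDs of 0.0869 to 0.287.

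The Control cells, which lack the inducible fusion, were compared for their own change over the same 24 h. Over the 16900 clusters measured in all 12 libraries, 0 differed between the series in their change over 24 h after adjustment (limma, smallest adjusted p = 0.168), while 985 (5.83%) changed more upward in Ikaros cells and 161 (0.953%) more downward at an unadjusted p under 0.05. In the class under 10%, the mean of the Control libraries was 0.900%, 0.926% and 1.01% at 0 h and 0.775%, 0.748% and 0.749% at 24 h. On the same clusters the Ikaros libraries were at 0.743%, 0.746% and 0.826% and then at 0.99%, 0.808% and 0.881%. The Control groups did not overlap and the Ikaros groups did. The changes of 0.121 and -0.188 points differed by 0.309, with an exact permutation p of 0.01 over 400 relabellings and 0.03 after adjustment over the 3 classes. Permuted within replicate numbers (the replicate block), it had an exact permutation p of 0.0312, the smallest that allows, and 0.0938 after adjustment, so the call was lost. The classes were set by the Ikaros 0 h libraries. With classes from the 2 h to 18 h Ikaros libraries the difference was 0.287 (exact permutation p = 0.01), and without Control 24 h replicate 2, the library that stood apart, it was 0.305 (p = 0.01, exact permutation). In the other classes the changes differed by 1.07 points (p = 0.26) and 0.314 points (p = 0.155) by the same exact permutation test. At 10 to 90% the difference was 0.654 without Control 24 h replicate 2, 0.576 without Ikaros 0 h replicate 1 and 0.606 without Control 0 h replicate 2.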

How the data were processed

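Methylation was measured by RRBS in 36 libraries. The 6 Ikaros libraries of 0 h and 24 h were compared, with the other Ikaros libraries and the Control libraries of 0 h and 24 h for reference. Trimmed reads had been mapped by the authors to GRCm38 (mm10) with Bismark 0.10.1 (submitters' processing notes), and smoothed levels within CpG clusters with BiSeq. The authors deposited smoothed levels as a fraction from 0 to 1, printed here as percentages, and M-values on a log2 scale, deposited after limiting levels to 0.01 to 0.99. No coverage was used here, so depth is unknown and no counting error is given. Smoothing shares information between neighbouring positions, so positions in a cluster are not independent.

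Groups and replicate numbers came from the labels, and 0 columns lacked a sample. Cluster means of M-values were tested with limma 3.58.1 (lmFit, eBayes; R 4.3.3), with Benjamini-Hochberg adjustment over all clusters and an adjusted p under 0.05 as the call. The test was tried on simulated clusters: of 200 changed among 17811, 49.5% were recovered at a change of 2 log2 units and 77% at 4, with 8 false calls in each. Means were compared by two-sided exact permutation (Python 3.11.15, numpy 2.4.6, pandas 2.3.3). Gene context came from GENCODE M21 on GRCm38, taking a promoter first, then coding exon, UTR, noncoding exon and intron. Of the positions, 1116322 lay on a CG of this genome and 95 did not. Genes were named for the 8 largest rises and falls, and the 2 largest in each class, among clusters at an unadjusted p under 0.05 without overlap, and listed genes at an unadjusted p under 0.05 or a difference above 5 points. Members and lists were chosen with earlier results of these data known. Same-numbered replicates did not deviate together (correlations 0.0144, -0.0158 and 0.0111).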

Additional observations from a re-analysis of the deposited data

Results flagged for a closer look

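The change over 24 h differed between Ikaros and Control cells in the clusters that started under 10%, by 0.309 percentage points (exact permutation p = 0.01, and 0.03 after adjustment over the 3 classes). With the replicate block this difference had an exact permutation p of 0.0312, the smallest the block allows. After adjustment it was 0.0938, so the difference no longer passed. The Ikaros change was 0.121 and the Control change -0.188. Empty positions moved in opposite directions too, from 0.194 to 0.717% at 0 h to 0.831 to 3.18% at 24 h in Ikaros cells and from 0.362 to 11.6% to 0.110 to 0.298% in Control cells. Levels of exactly 100% went from 3.22 to 6.64% to 7.43 to 14.2% in Ikaros cells and from 3.64 to 7.60% to 2.04 to 4.31% in Control cells. Levels of exactly 0% went from 31.8 to 38.4% to 31.9 to 45.0% in Ikaros cells and from 19.97 to 27.9% to 26.2 to 27.1% in Control cells, with overlapping ranges in both. The part of these shares in the difference was not tested.

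At the Trim68 start every Ikaros library of 24 h was above every one of 0 h, while every Control library of 24 h was below every one of 0 h, a Control difference of -6.10 points. Without Control 24 h replicate 2 (22.7%), the library that lay toward the Ikaros series, the Control difference was -3.06 points, and the groups were apart only by 32.7% against 32.9%. The limma test of the difference gave an adjusted p of 0.501. The cluster was chosen because its Ikaros groups were apart, so this test is not independent of the choice.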

How the results depend on the processing

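The smallest exact p of 0.1 for 3 libraries against 3, the unknown coverage and the batch of replicate 2 limit these comparisons. Of the class means, the direction turned in the class under 10% between the libraries' medians over clusters (-0.00609, where the median of the differences of single clusters was 0.0595) and over 90% for the mean over single positions (-0.0161). Leaving out 1 library gave 0.0732 to 0.155 under 10%, 0.276 to 1.22 at 10 to 90% and -0.0101 to 0.194 over 90%. Noncoding exons gave -0.0677 to 0.314 at all levels, -0.312 to 0.643 at 10 to 90% and -0.114 to 0.241 over 90%, and UTRs under 10% gave -0.280 to 0.133. A promoter window of 2000 bp gave -0.00730 for introns under 10% and -0.0410 for noncoding exons over 90%. Against the other 15 libraries, the lowest class gave -0.000202 to 0.0803, the middle class 0.118 to 0.752 and the highest 0.0214 to 0.184.

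Called clusters were 0 in every limma setting except the smoothed levels (1, at the Tesc promoter) and without Ikaros 24 h replicate 3 (1, near Irs2), so the range on leaving out a library was 0 to 1. For the difference between the series, 0 were called without Control 24 h replicate 2 and 2 without Ikaros 24 h replicate 2 (near Npdc1 and Taf4). No other library was left out for these calls. These 4 were singled out after their values were seen. Counts at an unadjusted p under 0.05 that moved by over 1.5 times were 438 higher and 434 lower after centring, 481 lower with the covariates, 423 lower in batches 1 and 4 only, and 56 and 27 in the 2041 clusters of 10 to 90% mean level, a setting added after the data were seen. Leaving out 1 library gave 686 to 1130 higher and 282 to 397 lower. Under the replicate block, 0 clusters were called, and 775 higher and 313 lower at an unadjusted p under 0.05. For the difference of 0.309 between the series under 10%, the block gave an exact permutation p of 0.0312, the smallest it allows, and 0.0938 after adjustment over the 3 classes, against 0.03 without the block. Leaving out each of the 12 libraries in turn, 10 of them chosen after seeing the data, gave 0.260 to 0.352 under 10% (exact permutation p from 0.005 to 0.015), 0.576 to 1.56 at 10 to 90% and 0.226 to 0.422 over 90%.

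For batches 1 and 4 only, Foxo1 turned to 0.107, Ldha to 0.0180 and Myc to 0.0404 points, all near 0. Without 1 library the values ran from -0.124 to 0.184 at Myc, from -0.51 to 0.00739 at 1 of the Foxo1 clusters, from -0.446 to 2.04 at the other of the Foxo1 clusters, from -0.106 to 0.00971 at Ldha, and from -0.238 to 0.426 at 1 of the Lig4 clusters.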
